A study of Mus musculus with 57 samples.

Results

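The genes described here are the heat shock proteins and molecular chaperones on the array, 75 of the 12393 genes that had at least 1 probeset with a single annotated gene symbol. They were taken by symbol alone: the Hspa, Hspb, Hspd, Hspe, Hsph and Hsp90 genes, the DnaJ genes of subfamilies A, B and C, the Cct genes with Tcp1, and the BAG genes. Each gene was represented by the probeset of highest mean signal among its own, out of 152 probesets in all, and 43 of the 75 genes had more than 1. Signals were log2 RMA values, so a difference of 1 is a 2-fold difference in signal. The test was applied to 73 of the genes, because the probesets of Dnajb3 and Dnajb7 stayed under a signal of 4.5 on every array.

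RNA was hybridized to 57 Affymetrix mouse genome arrays. There were 19 arrays of the ventral midbrain (VMB, named ventral tegmental area in the labels), 19 of the prefrontal cortex (PFC) and 19 of the nucleus accumbens (NAc), with 1 mouse and 1 region on each array. The paper states that RNA of 19 individual mice was hybridized, with 1 array for each region, so the regions share mice. The labels do not say which arrays are of the same mouse. All animals were male C57Bl/6NCrl mice, an inbred strain, that could choose between water and 10% (w/v) ethanol in their home cage. They had 16 drinking sessions of 18 h, in rounds of 4 with days of abstinence between rounds, and tissue was taken 6 days after the last session. Every group therefore carried the same ethanol history and abstinence, no mice without ethanol access were analysed here, and the 3 regions were the only groups that the labels gave. The study asked which genes follow the drinking of individual mice, and the intake of each mouse was not analysed here, so the chaperones were described by class, by region and from mouse to mouse.

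Chaperones bind unfolded or partly folded proteins and keep them from aggregating. Hsp70 proteins do so in cycles of ATP hydrolysis that are started by J proteins (the DnaJ family) and ended by nucleotide exchange factors, among them the Hsp110 and BAG proteins, while Hsp90 finishes the folding of kinases and steroid receptors. Hsp60 with its lid Hsp10 in mitochondria and the ring-shaped TRiC complex in the cytosol fold proteins inside a chamber, and small heat shock proteins hold unfolded chains without ATP. In the cytosol these genes are induced by heat shock factor 1, and in the endoplasmic reticulum (ER) by the unfolded protein response, and neurons are known for keeping a high basal level of Hsp70 and Hsp90 proteins.

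The deposited signals were not on a single scale: array medians ran from 6.26 to 6.32 in NAc, from 5.66 to 5.70 in PFC and from 5.79 to 5.86 in VMB, and the median difference between NAc and PFC over all tested probesets was 0.72 as deposited and 0.03 once all arrays had been quantile normalized together. Regions were therefore compared on the jointly normalized scale, and relations between mice within a region on the deposited scale. A single PFC array had labels that named both PFC and the ventral midbrain, and its mean correlation was 0.9955 with the other PFC arrays, 0.9661 with NAc and 0.9545 with VMB, so it was kept in PFC as its title says. NAc arrays 1, 6 and 19 and PFC array 3 lay far along the main axis of variation of their region, which carried 51.2% of the variance for NAc, 17.2% for PFC and 32.4% for VMB. The regions carried their own markers, with 5 of 5 striatal projection neuron markers higher in NAc than in PFC, 4 of 4 cortical excitatory neuron markers lower in NAc and in VMB than in PFC, and 4 of 6 dopamine neuron markers higher in VMB than in PFC. Of the 6 dopamine neuron markers 3 were also higher in NAc than in PFC, and 1 was higher and 3 lower in NAc than in VMB. Of the 4 cortical markers 3 were higher in NAc than in VMB. Glial markers moved with region too. All 9 oligodendrocyte markers were higher in NAc and in VMB than in PFC, with mean levels of 9.71 to 10.05 on NAc arrays, 7.53 to 8.87 on PFC arrays and 10.66 to 10.96 on VMB arrays, and of 8 astrocyte markers 5 were higher and 1, Slc1a3, lower in VMB than in PFC, while 2 were lower in NAc than in PFC. The part of cell composition in the region differences below was not tested, and in tissue RNA fewer cells of a type and less RNA per cell cannot be told apart.

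Promoter sequences are shown first for some genes of the mouse-to-mouse relations, whether or not these passed, and for Bag3, the gene with the widest region difference. They come from RefSeq (assembly GRCm38.p6), run from 250 bases before to 50 bases after the annotated start, and were found for 62 of the 75 genes, 79 promoters in all. Heat shock factors bind inverted repeats of GAA. The motif of 2 such units, GAANNTTC or TTCNNGAA, was in 15.1% of the 32851 promoters of the table and in 25.3% of the chaperone promoters, spread over 18 genes. The motif of 3 units, which extends the shorter one by a further GAA or TTC in alternation at the same spacing of 2 bases, was in 0.603% of all promoters and in 7.59% of the chaperone promoters, those of Dnajb6, Hspd1, Hspe1 and Hsph1. Dnajb1, which is set beside Hspa1b further on, was not among the genes with a match of 2 or of 3 units. Capitals in the following lines mark every match on either strand, of 2 units for Hspa1b and Bag3 and of 3 units for Hspe1 and Hsph1.
Hspa1b, chr17:34959189-34959488, minus strand: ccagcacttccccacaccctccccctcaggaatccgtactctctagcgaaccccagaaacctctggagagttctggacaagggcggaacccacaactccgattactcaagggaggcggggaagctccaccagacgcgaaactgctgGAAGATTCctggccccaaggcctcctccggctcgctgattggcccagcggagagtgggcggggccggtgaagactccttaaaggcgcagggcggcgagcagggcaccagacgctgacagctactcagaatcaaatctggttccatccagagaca
Bag3, chr7:128523333-128523632, plus strand: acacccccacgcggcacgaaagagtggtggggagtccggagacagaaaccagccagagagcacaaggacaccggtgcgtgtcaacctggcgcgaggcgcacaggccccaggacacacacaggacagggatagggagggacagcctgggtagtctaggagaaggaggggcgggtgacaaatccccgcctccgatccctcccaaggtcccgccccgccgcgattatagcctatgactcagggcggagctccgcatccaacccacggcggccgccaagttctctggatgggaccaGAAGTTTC
Hspe1, chr1:55087898-55088197, plus strand: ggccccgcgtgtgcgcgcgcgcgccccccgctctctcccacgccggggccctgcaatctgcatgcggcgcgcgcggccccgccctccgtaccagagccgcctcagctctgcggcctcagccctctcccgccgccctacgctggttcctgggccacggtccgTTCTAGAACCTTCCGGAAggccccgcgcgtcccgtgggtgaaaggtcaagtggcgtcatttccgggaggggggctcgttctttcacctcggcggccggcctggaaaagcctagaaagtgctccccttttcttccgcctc
Hsph1, chr5:149636266-149636565, minus strand: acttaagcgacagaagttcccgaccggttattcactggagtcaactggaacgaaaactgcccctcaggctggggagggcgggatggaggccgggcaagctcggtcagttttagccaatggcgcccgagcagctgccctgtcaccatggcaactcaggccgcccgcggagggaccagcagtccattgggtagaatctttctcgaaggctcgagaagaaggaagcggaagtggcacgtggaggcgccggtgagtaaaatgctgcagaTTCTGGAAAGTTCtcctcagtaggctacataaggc
The Hspa1b stretch differed from that of its neighbouring copy Hspa1a at 4 of 300 positions. Hspd1 and Hspe1 are neighbours read in opposite directions, and the match shown for Hspe1 also lies in the Hspd1 promoter on the other strand.

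The ER stress element is a sequence through which the unfolded protein response acts. It is CCAAT followed after 9 bases of any kind by CCACG, on either strand. It was in 0.119% of all promoters and in 3.8% of the chaperone promoters, those of Hspa5, Hsp90b1 and Dnajc3, and capitals mark it below. These 3 are ER chaperones whose levels are set side by side across mice further on.
Hspa5, chr2:34771840-34772139, plus strand: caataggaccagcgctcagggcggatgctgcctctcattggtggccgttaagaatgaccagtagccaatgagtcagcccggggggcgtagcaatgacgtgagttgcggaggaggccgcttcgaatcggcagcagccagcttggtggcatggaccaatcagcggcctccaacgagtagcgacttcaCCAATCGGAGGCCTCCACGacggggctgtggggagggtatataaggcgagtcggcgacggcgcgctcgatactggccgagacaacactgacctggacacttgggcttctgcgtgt
Hsp90b1, chr10:86705395-86705694, minus strand: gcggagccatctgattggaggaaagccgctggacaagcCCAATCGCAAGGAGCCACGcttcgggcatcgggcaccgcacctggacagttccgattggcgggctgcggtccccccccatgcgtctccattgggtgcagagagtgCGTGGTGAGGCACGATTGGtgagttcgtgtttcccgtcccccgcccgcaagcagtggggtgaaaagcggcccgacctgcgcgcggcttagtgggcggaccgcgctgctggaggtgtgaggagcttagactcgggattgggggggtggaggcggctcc
Dnajc3, chr14:118937682-118937981, plus strand: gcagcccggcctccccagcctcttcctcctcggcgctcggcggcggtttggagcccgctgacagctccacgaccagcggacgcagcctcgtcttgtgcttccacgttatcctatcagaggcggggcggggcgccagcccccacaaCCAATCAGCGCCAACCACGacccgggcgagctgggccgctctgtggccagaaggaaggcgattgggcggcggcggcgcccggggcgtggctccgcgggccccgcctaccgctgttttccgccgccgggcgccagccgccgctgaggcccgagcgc
A match describes these letters and no binding was measured.

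Across regions, single chaperones stood out in both directions. A gene was called higher or lower in a region when its difference exceeded 0.5 log2 units at an adjusted p under 0.01 (limma). By this rule 21 of the 73 tested genes, 28.8%, were called in at least 1 of the 3 region comparisons, against 33.0% of all tested probesets. Between NAc and PFC 3 genes were higher and 5 lower in NAc, 11% of the chaperones against 15.1% of all probesets (7.26% higher, 7.86% lower). Between VMB and PFC 6 were higher and 6 lower in VMB, 16.4% against 19.1% (9.37% higher, 9.71% lower). Between NAc and VMB 6 were higher and 7 lower in NAc, 17.8% against 19.6% (9.39% higher, 10.2% lower). The share called was thus near the background in each comparison. The 3 comparisons share arrays, so their counts are not independent. The median difference of the 73 genes was 0.11 for NAc minus PFC, 0.13 for VMB minus PFC and -0.01 for NAc minus VMB, beside 0.03, 0.02 and 0.02 over all tested probesets.

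On the deposited scale, where the whole NAc distribution lies higher, the split changed for chaperones and background alike. There 48 chaperones were called higher and 1 lower in NAc than in PFC, beside 57% and 1.72% of all probesets (58.7% in either direction). Between NAc and VMB 34 were higher and 2 lower in NAc, beside 40.7% and 2.79% (43.5% in either direction). Between VMB and PFC 8 were higher and 6 lower in VMB, beside 14% and 7.41% (21.5% in either direction).

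**Figure D1:**
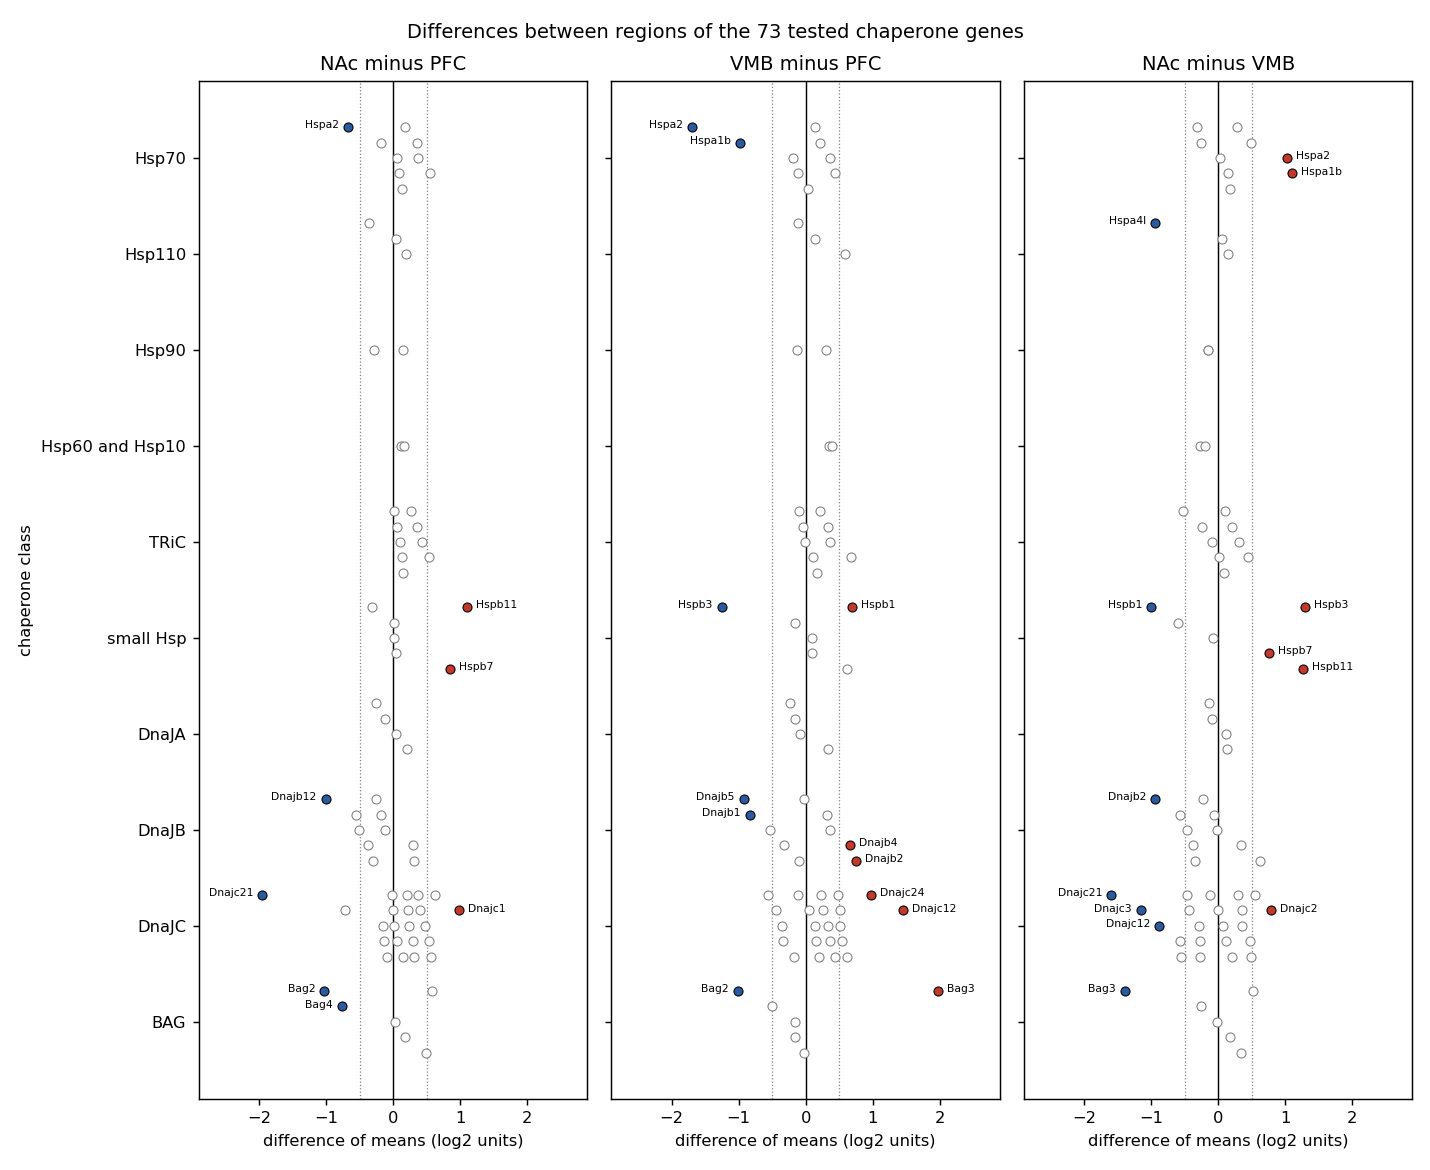
Differences between region means, in log2 units of jointly normalized signal, for the 73 tested chaperone genes by class (1 point a gene; rows are classes, panels are the 3 comparisons). Filled points are genes called higher (red) or lower (blue), dotted lines mark the 0.5 minimum, and by these chosen probesets no gene of the TRiC, Hsp90, Hsp60 and Hsp10 or DnaJA classes is filled in any panel.

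By class, and by the chosen probeset of each gene, none of the 17 genes of the TRiC complex, Hsp90, Hsp60 with Hsp10 and the DnaJA class was called in any comparison, as the plot of differences by class shows. This count depends on the choice of probeset, since another probeset was called in 4 of the 17, namely Hsp90aa1, Cct3, Dnaja3 and Dnaja4. Over all 143 probesets of the tested genes 47 were called in at least 1 comparison, 32.9% beside the 33.0% of all probesets, and 12 of the genes not called by their chosen probeset had another that was. By the chosen probeset, called genes came from the small heat shock proteins with 4 of 6, the BAG genes with 3 of 6, the DnaJB class with 5 of 10, the DnaJC class with 6 of 22, Hsp70 with 2 of 9 and Hsp110 with 1 of 3. Without the minimum difference, the ordinary limma test called 35 chaperones higher and 19 lower in NAc than in PFC, when 38.6% and 33.9% of all probesets were (72.5% in either direction), and 38 higher and 21 lower in VMB than in PFC, when 37.7% and 35.2% were (72.8%). Between NAc and VMB that test called 29 higher and 33 lower in NAc, when 39.0% and 35.7% of all probesets were (74.7%). That test compares a difference with its standard error, and some of the regions it separated overlapped.

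Among the Hsp70 genes, Hspa2 showed the largest region difference. It encodes an Hsp70 best known from male germ cells. Its level ran from 7.71 to 8.36 (median 7.97) in PFC, from 7.08 to 7.64 (median 7.35) in NAc and from 5.97 to 6.56 (median 6.36) in VMB. PFC was highest, NAc intermediate and VMB lowest, with no overlap between any pair of regions. Hspa2 was 3.25-fold lower in VMB than in PFC, a difference of -1.70 (SE 0.050, adjusted p = 1.24e-30, limma), and 2.04-fold higher in NAc than in VMB (adjusted p = 2.79e-14). Its difference between NAc and PFC was -0.67 (adjusted p = 0.00412), a call that was lost without the arrays numbered 10 (difference -0.65, adjusted p = 0.010). This call was also lost on the deposited scale and with each array centred on its median.

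Hspa1b, the inducible cytosolic Hsp70, was lowest in VMB. Its level ran from 6.80 to 7.41 (median 7.12) in NAc, from 6.46 to 8.18 (median 6.91) in PFC and from 5.57 to 6.45 (median 6.03) in VMB. Every VMB array lay below every NAc and PFC array, and the single PFC array at 8.18 stood far above the rest. Hspa1b was 2.15-fold higher in NAc than in VMB (difference 1.10, SE 0.086, adjusted p = 1.24e-08, limma) and 1.97-fold lower in VMB than in PFC (difference -0.98, SE 0.086, adjusted p = 2.81e-06). All 3 of its probesets gave the same signs, from -2.09 to -0.98 for VMB minus PFC, and without the arrays numbered 10 the difference was -0.93. For NAc minus PFC they disagreed, from -1.13 to 0.13. The chosen probeset was not called there, while the one at -1.13 was called lower in NAc (adjusted p = 1.3e-06, limma). Its near-identical copy Hspa1a was not called in any comparison, with differences of 0.09, -0.18 and 0.28, and probes of these copies can share signal.

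The constitutive Hsp70 genes were not called by their chosen probesets. For Hspa8, the main cytosolic Hsp70 of neurons, the difference was -0.18 for NAc minus PFC and 0.14 for VMB minus PFC, with levels between 12.08 and 12.84 on all 57 arrays. The ER form Hspa5 (BiP) gave 0.36 and 0.21, and the mitochondrial form Hspa9 gave 0.18 and 0.44. The 4 probesets of Hspa9 disagreed, from -0.58 to 1.28 for VMB minus PFC and from -0.60 to 0.75 for NAc minus PFC, and the highest of them was called in both (adjusted p = 3.14e-21 and 3.17e-05, limma). On the deposited scale, where nearly all genes read higher in NAc, the sign of the Hspa8 difference between NAc and PFC turned.

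In the Hsp110 class, whose members exchange nucleotides on Hsp70, Hspa4l alone was called. Its level ran from 7.64 to 8.46 (median 8.12) in NAc, from 8.21 to 8.76 (median 8.48) in PFC and from 8.70 to 9.60 (median 8.97) in VMB. NAc and VMB did not overlap, and the 1.92-fold lower level in NAc had a difference of -0.94 (SE 0.066, adjusted p = 3.92e-08, limma). Hspa4 differed by 0.19 for NAc minus PFC and 0.14 for VMB minus PFC, and Hsph1 by 0.04 and -0.11.

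By their chosen probesets, the Hsp90 genes and the chamber-forming chaperones were called in no region comparison. Hsp90aa1, the inducible cytosolic Hsp90, gave differences of -0.29, -0.13 and -0.16 for NAc minus PFC, VMB minus PFC and NAc minus VMB, and its ER counterpart Hsp90b1 gave 0.16, 0.30 and -0.15. The 3 probesets of Hsp90aa1 disagreed in size for NAc minus PFC, the others giving -0.48 and -1.0, the latter called (adjusted p = 1.66e-12, limma). Hspd1 and Hspe1, the mitochondrial chamber and its lid, gave 0.12 and 0.17 for NAc minus PFC and 0.39 and 0.36 for VMB minus PFC. The 9 TRiC genes had a median difference of 0.15 for NAc minus PFC and 0.17 for VMB minus PFC. Within the complex, Tcp1 differed by 0.02 and 0.11 and Cct2 by 0.11 and -0.09, while a Cct3 probeset other than the chosen one was called for NAc minus PFC at 0.60 (adjusted p = 0.00775). Cct8 reached 0.67 for VMB minus PFC (adjusted p = 0.0126), and without the 4 arrays far along the main axes its adjusted p was 0.00175. Its other probeset had the opposite sign, -0.19, and the mean of both was 0.24 (adjusted p = 1.0).

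Among the small heat shock proteins 4 of 6 were called. Hspb3, a member best known from muscle, was lowest in VMB. It ran from 5.56 to 6.5 (median 5.91) in NAc, from 5.37 to 6.17 (median 5.83) in PFC and from 4.38 to 4.79 (median 4.61) in VMB, so that VMB overlapped with neither. The level in VMB was near the filter, with 14 of 19 VMB arrays at a deposited signal of at least 4.5. Hspb3 was 2.46-fold higher in NAc than in VMB (difference 1.30, SE 0.057, adjusted p = 3.14e-19, limma) and 2.38-fold lower in VMB than in PFC (adjusted p = 3.26e-18).

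Hspb1 (Hsp27), a stress-induced small heat shock protein that also guards the cytoskeleton, was highest in VMB. Its level ran from 7.95 to 8.48 (median 8.16) in VMB, from 7.04 to 7.96 (median 7.48) in PFC and from 7.0 to 7.41 (median 7.12) in NAc. VMB lay above all NAc arrays and touched PFC only at its lowest array. Hspb1 was 2.00-fold lower in NAc than in VMB (difference -1.0, SE 0.052, adjusted p = 4.35e-13, limma) and 1.62-fold higher in VMB than in PFC (adjusted p = 0.00112). With the mean of its probesets the latter adjusted p was 0.0533, and with each array centred on its median the latter call was lost too.

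Hspb11 and Hspb7 were called higher in NAc by their chosen probesets alone. Hspb11, also known as the intraflagellar transport protein Ift25, ran from 7.11 to 8.11 (median 7.67) in NAc, from 6.28 to 6.91 (median 6.58) in PFC and from 5.74 to 6.89 (median 6.37) in VMB. All NAc arrays were above all others, and the differences were 1.10 against PFC (SE 0.071, adjusted p = 8.9e-11, limma) and 1.27 against VMB (adjusted p = 1.41e-14). Its other probeset gave 0.02 and 0.04. For Hspb7, known from heart and muscle, the differences were 0.85 against PFC and 0.76 against VMB. Its deposited signal reached 4.5 on only 2 of 19 PFC arrays and 13 of 19 VMB arrays. Another of its 3 probesets gave -0.49 and -0.09, and with the mean of its probesets neither call remained. Hspb2 was not called in any comparison. Hspb8, a partner of Bag3, was not called either, at 0.62 for VMB minus PFC, although the mean of its 3 probesets was, at 0.90 (adjusted p = 1.24e-08).

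**Figure D2:**
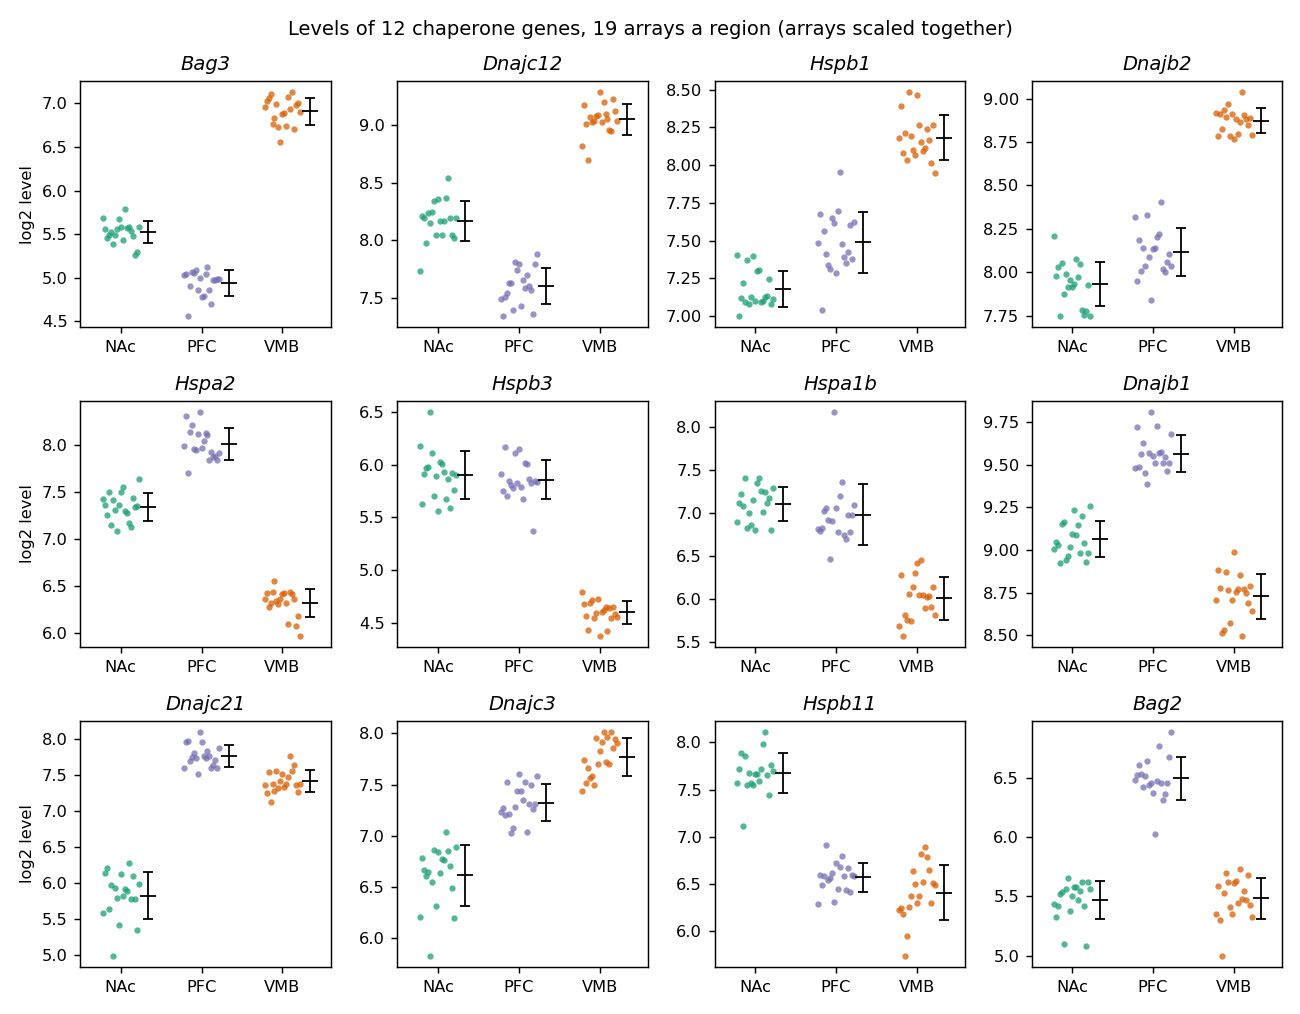
Levels of 12 chaperone genes on each array, in log2 units of jointly normalized signal, for the 19 arrays of NAc, PFC and VMB (1 point an array; the black mark beside each column is the mean with its SD). Bag3, Dnajc12, Hspb1 and Dnajb2 are highest in VMB, Hspa2, Hspb3 and Hspa1b lowest in VMB, and Dnajc21 and Dnajc3 lowest in NAc.

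J proteins, which hand substrates to Hsp70 and set where it works, were called in 11 of 36 tested genes, 30.6% beside the 33.0% of all probesets. In the DnaJB class Dnajb1 (Hsp40), the heat-inducible partner of the inducible Hsp70, ran from 9.39 to 9.81 (median 9.55) in PFC, from 8.92 to 9.26 (median 9.04) in NAc and from 8.50 to 8.99 (median 8.75) in VMB. VMB lay below all PFC arrays and the difference was -0.84 (SE 0.038, adjusted p = 1.38e-11, limma), a 1.79-fold lower level. Dnajb2 (HSJ1), a J protein enriched in neurons, went the other way. It ran from 8.77 to 9.04 (median 8.88) in VMB, from 7.84 to 8.41 (median 8.11) in PFC and from 7.75 to 8.21 (median 7.93) in NAc, with VMB apart from both. Its level in VMB was 1.69-fold higher than in PFC (adjusted p = 5.16e-08) and its level in NAc 1.92-fold lower than in VMB (adjusted p = 1.32e-15).

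Other DnaJB genes were called in a single comparison. Dnajb5 was lower in VMB than in PFC by a difference of -0.92 (SE 0.044, adjusted p = 8.76e-13, limma), with 3 of 3 probesets of the same sign, and the mean of these was also called higher in NAc than in VMB (difference 0.85, adjusted p = 3.56e-13). Dnajb4 was higher there, 0.67 (adjusted p = 0.000107), a call that the mean of its 2 probesets did not keep (difference 0.47, adjusted p = 1.0). The Dnajb4 call was also lost with each array centred on its median. Dnajb12, an ER membrane J protein, was lower in NAc than in PFC by -1.0, while its other probeset gave 0.42. Dnajb6, which holds polyglutamine proteins in solution, was not called, with differences of -0.56 for NAc minus PFC (adjusted p = 0.077) and -0.33 for VMB minus PFC. Its 4 probesets disagreed, and 2 others were called for NAc minus PFC in opposite directions, at -1.43 and 0.75 (adjusted p = 6.6e-08 and 0.000839, limma).

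The DnaJC class held the widest contrasts of NAc with the other regions. Dnajc21, a nuclear and cytosolic J protein needed for making the large ribosomal subunit, ran from 4.98 to 6.27 (median 5.88) in NAc, from 7.52 to 8.10 (median 7.76) in PFC and from 7.13 to 7.77 (median 7.38) in VMB. Every NAc array lay below every array of both other regions. Dnajc21 was 3.87-fold lower in NAc than in PFC (difference -1.95, SE 0.071, adjusted p = 1.36e-26, limma) and 3.03-fold lower than in VMB (adjusted p = 3.33e-21). It had a single probeset.

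Dnajc12, a cochaperone of the aromatic amino acid hydroxylases, tyrosine hydroxylase among them, was highest in VMB. It ran from 8.69 to 9.29 (median 9.05) in VMB, from 7.74 to 8.54 (median 8.19) in NAc and from 7.34 to 7.88 (median 7.6) in PFC, with VMB apart from both others. Its level in VMB was 2.73-fold higher than in PFC (difference 1.45, SE 0.051, adjusted p = 3.26e-25, limma) and its level in NAc 1.84-fold lower than in VMB (adjusted p = 2.15e-09). Tyrosine hydroxylase itself (Th) ran from 7.86 to 8.62 in VMB, from 5.77 to 7.24 in NAc and from 4.63 to 5.01 in PFC. Across the 19 mice of VMB, Dnajc12 and Th gave Pearson's r = -0.305 and Spearman's rho = -0.412 (adjusted permutation p = 0.825 and 0.766 over 24 relations examined after the region values were seen). In the same family, Dnajc12 with Mbp in NAc gave r = -0.744 (permutation p = 0.00023, adjusted 0.00552) and rho = -0.732 (p = 0.00054, adjusted 0.013), with r = -0.756 without the 2 arrays farthest from the median, but r = -0.394 (adjusted 0.648) with the main axis of NAc taken out, and the other relations of Dnajc12 and Bag3 with Th, Slc6a3, Mbp and Mobp did not pass.

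Dnajc3 (p58IPK), an ER J protein that works with Hspa5, was lowest in NAc. It ran from 5.83 to 7.04 (median 6.66) in NAc, from 7.03 to 7.61 (median 7.31) in PFC and from 7.43 to 8.02 (median 7.74) in VMB, and NAc did not overlap with VMB. The level in NAc was 2.23-fold lower than in VMB (difference -1.15, SE 0.072, adjusted p = 4.6e-12, limma), with 5 of 5 probesets of the same sign. Dnajc1, another ER J protein, was 1.98-fold higher in NAc than in PFC (adjusted p = 2.26e-10). Dnajc24, which acts in the making of diphthamide, was 1.96-fold higher in VMB than in PFC, and Dnajc2, a ribosome-associated J protein, 1.73-fold higher in NAc than in VMB, but neither call was kept with the mean of their probesets. Dnajc5 (cysteine string protein), the J protein of synaptic vesicles, differed by -0.13 for NAc minus PFC and 0.13 for VMB minus PFC and was not called, while another of its probesets was lower in NAc than in PFC, at -1.0 (adjusted p = 1.24e-05).

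Bag3 gave the largest difference of all 73 genes. It is a heat-inducible exchange factor of Hsp70 that directs clients to autophagy. Its level ran from 6.56 to 7.13 (median 6.93) in VMB, from 5.26 to 5.79 (median 5.54) in NAc and from 4.56 to 5.13 (median 4.98) in PFC. The 3 regions did not overlap, and in PFC 15 of 19 arrays reached a deposited signal of 4.5. Bag3 was 3.92-fold higher in VMB than in PFC (difference 1.97, SE 0.047, adjusted p = 8.36e-37, limma) and 2.61-fold lower in NAc than in VMB (adjusted p = 1.95e-25). Bag2, which restrains the ubiquitin ligase partner of Hsp70, was highest in PFC, from 6.03 to 6.89 (median 6.47), against 5.08 to 5.65 (median 5.52) in NAc and 5.0 to 5.73 (median 5.47) in VMB. PFC was apart from both, by differences of -1.03 for NAc minus PFC (adjusted p = 1.71e-12) and -1.01 for VMB minus PFC (adjusted p = 2.52e-12). On the deposited scale the Bag2 call for NAc minus PFC was lost (difference -0.43). Bag4 was lower in NAc than in PFC, -0.76 (adjusted p = 0.00684), and this call was lost without the arrays numbered 10 (adjusted p = 0.0126) and without the 4 arrays far along the main axes (difference -0.67, adjusted p = 0.105). The Bag4 call was also lost on the deposited scale, with each array centred on its median and with array weights. Bag1 differed by 0.18 for NAc minus PFC and -0.15 for VMB minus PFC and was not called.

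Of the 33 calls over the 3 comparisons, 31 were of regions whose arrays did not overlap. That share was not counted over all called probesets, so it is not read as a trait of chaperones. Under 12 alternative settings 9 calls, of 6 genes, were kept throughout, although 5 of the 6 genes had a single probeset, which a change of probeset rule cannot move, and dropping the minimum difference cannot lose a call. They were those of Dnajc21 in both comparisons of NAc, Bag3 in both comparisons of VMB, Hspb3 in both comparisons of VMB, Dnajc12 and Hspa2 between VMB and PFC, and Hspb11 between NAc and VMB. Taking the mean of a gene's probesets lost 8 calls, and that mean takes in probesets under the filter, as for Hspb11 and Dnajc24. The deposited scale, where NAc reads higher, lost the NAc minus PFC calls of Bag2, Bag4, Dnajb12 and Hspa2. It also lost the NAc minus VMB calls of Dnajb2, Dnajc12, Dnajc3, Hspa4l and Hspb1. How many of all called probesets were kept throughout was likewise not counted.

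Genes of the same pathways outside the symbol rule were measured beside them. Of 25 tested folding partners and regulators, 2 were higher and 2 lower in NAc than in PFC, 3 higher and 1 lower in VMB than in PFC, and 0 higher and 5 lower in NAc than in VMB. These were 16%, 16% and 20% of the list, beside the 15.1%, 19.1% and 19.6% of all probesets called in either direction. The widest difference was that of Cryab, the small heat shock protein alpha-B crystallin, which is abundant in oligodendrocytes. Cryab ran from 9.98 to 10.70 in VMB, from 9.21 to 10.01 in NAc and from 7.71 to 8.56 in PFC, in the order of the oligodendrocyte markers given above. It was higher in VMB than in PFC by 2.31 and in NAc than in PFC by 1.58 (adjusted p = 7.91e-34 and 2.55e-22, limma). Of the partners of Hsp90, Stip1, which links Hsp70 to Hsp90, was lower in NAc than in VMB by -0.71, Fkbp4 by -0.66 and Chordc1 by -0.65, while Cdc37 (-0.17), Ahsa1 (-0.26), Fkbp5 (0.30), Sugt1 (0.09) and Unc45a (0.06) were not called in that comparison. Pfdn2, a subunit of the prefoldin that feeds TRiC, was lower in NAc than in VMB by -1.02 and than in PFC by -0.84.

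Of 18 ER folding genes, 2 were higher and 0 lower in NAc than in PFC, 2 higher and 1 lower in VMB than in PFC, and 2 higher and 2 lower in NAc than in VMB. These were 11.1%, 16.7% and 22.2% of the list, beside the same background. Pdia4, a disulfide isomerase, was higher in VMB than in PFC by 1.53 (SE 0.058, adjusted p = 3.82e-24, limma), although 1 of its 2 probesets had the other sign. Atf6, a sensor of the unfolded protein response, was lower in VMB than in PFC by -1.39 (adjusted p = 1.68e-30). Its levels ran from 6.49 to 6.86 in VMB, from 7.42 to 7.82 in NAc and from 7.93 to 8.45 in PFC, without overlap.

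From mouse to mouse within a region, 36 relations were computed, 12 in each region, between genes known to share a regulator. Relations are given on the deposited scale over 19 arrays, with permutation p-values adjusted over the 36. The relation of Hspa1b with Dnajb1 passed, at an adjusted p under 0.05, in each region. In NAc Pearson's r was 0.652 (permutation p = 0.00302, adjusted 0.0136) and Spearman's rho 0.713 (p = 0.00092, adjusted 0.011). In PFC r was 0.713 (permutation p = 0.00069, adjusted 0.00606) and rho 0.605 (p = 0.0076, adjusted 0.0391). In VMB r was 0.618 (permutation p = 0.00511, adjusted 0.0176) and rho 0.658 (p = 0.00267, adjusted 0.0176).

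These relations leaned to different degrees on single arrays. Without the 2 arrays farthest from the median of Hspa1b, r was 0.657 in NAc and 0.649 in VMB. In PFC it was 0.428 (adjusted permutation p = 0.221), so the PFC relation was weaker and no longer passed without those arrays. With the main axis taken out r was 0.467 in NAc (adjusted permutation p = 0.151), and after joint quantile normalization it was 0.459 in NAc and 0.474 in VMB (adjusted 0.145 for both), so that these settings ended the call there but not in PFC. Without the arrays numbered 10 it was 0.545 in PFC (adjusted permutation p = 0.0684) and 0.505 in VMB (adjusted 0.0952). Of the other heat shock factor targets, Hspb1 followed Hspa1b in VMB with r = 0.621 (permutation p = 0.00484, adjusted 0.0176) and rho = 0.563 (p = 0.0132, adjusted 0.0475). For Hspb1 r was 0.602 without the 2 farthest arrays (adjusted permutation p = 0.0512) and 0.503 without array 10 (adjusted 0.0952). Hsph1, Hsp90aa1, Hspa8, Bag3 and Dnaja1 passed in no region, and for Hsph1 in PFC r was -0.536 (adjusted permutation p = 0.0565), and -0.243 without array 10 (adjusted 0.456).

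**Figure D3:**
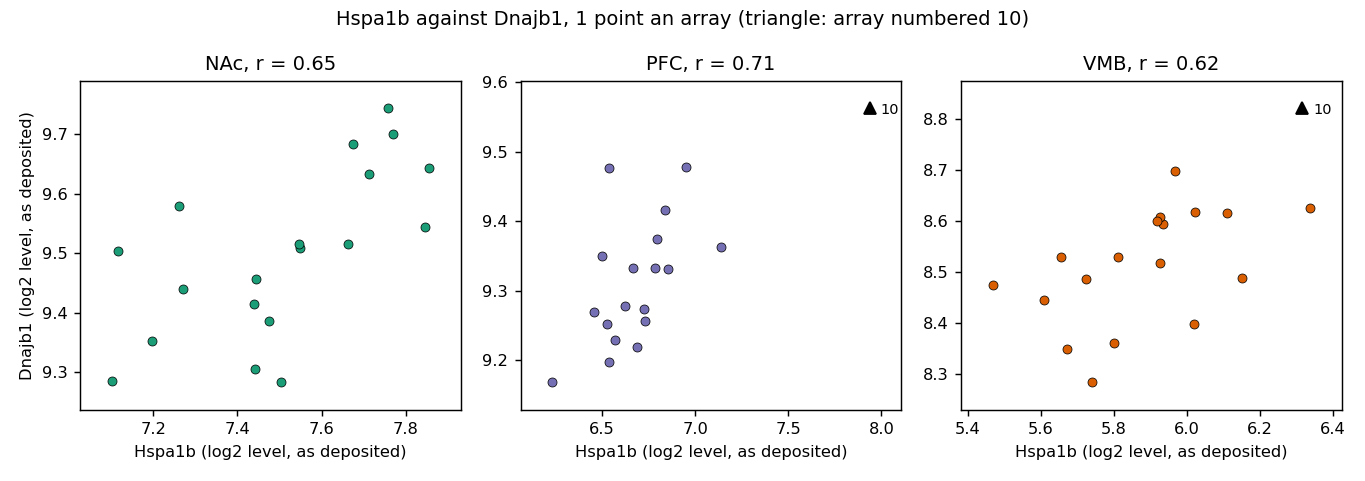
Level of Dnajb1 against that of Hspa1b in log2 units as deposited, 1 point an array, in NAc, PFC and VMB; the triangle is the array numbered 10. Both genes rise together in each panel, with r of 0.65, 0.71 and 0.62, and the triangle lies at the upper right in PFC and VMB, while no NAc array carries that number.

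The array numbered 10 in PFC stood apart for Hspa1b and some other inducible chaperones. It was singled out after its values were seen. Its deposited Hspa1b level was 7.94, against 6.23 to 7.14 (median 6.68) on the other 18 PFC arrays, and all 3 Hspa1b probesets were highest on it. It was also the highest PFC array for Hspa1a at 5.96, for Dnajb1 at 9.56 and for Dnajb4 at 9.0, and the lowest for Hsph1, at 9.89 against a median of 10.23. For Hspb1 and Dnaja1 it ranked 5 from the top.

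The VMB array of the same number showed a partly like pattern, with a smaller rise of Hspa1b. It was highest of the 19 VMB arrays for Dnajb1 at 8.82, Dnajb4 at 9.68, Hspb1 at 8.33 and Dnaja1 at 10.55, ranked 2 from the top for Hspa1b at 6.32 and for Hspa1a at 5.91, and was lowest for Hsph1 at 10.00 against a median of 10.16. The second probeset of Dnajb1 ranked 6 in VMB, and that of Hsph1 ranked 16 in PFC and 17 in VMB. By their chosen probesets, Hspa8, Hsp90aa1 and Bag3 lay within the range of the other arrays in both regions, and a dim probeset of Hspa8 was highest on VMB array 10, at 5.17 against at most 4.90. Over all 73 genes array 10 held the highest value for 12 in PFC (16.4%, against 7.13% of all tested probesets) and for 15 in VMB (20.5%, against 6.42%). These counts include genes whose values had singled out array 10, so they are not independent of that choice. In PFC array 3 held the highest value for more of them, 13 (17.8%, against 13.1% of all tested probesets). Other arrays also exceeded their background, such as NAc array 8 (10.96%, against 3.27%) and VMB array 16 (9.59%, against 3.63%). Some fell below it, such as NAc array 1 (1.37%, against 12.17%). The labels do not state that arrays of the same number come from the same mouse, and what set the arrays numbered 10 apart was not tested.

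**Figure D4:**
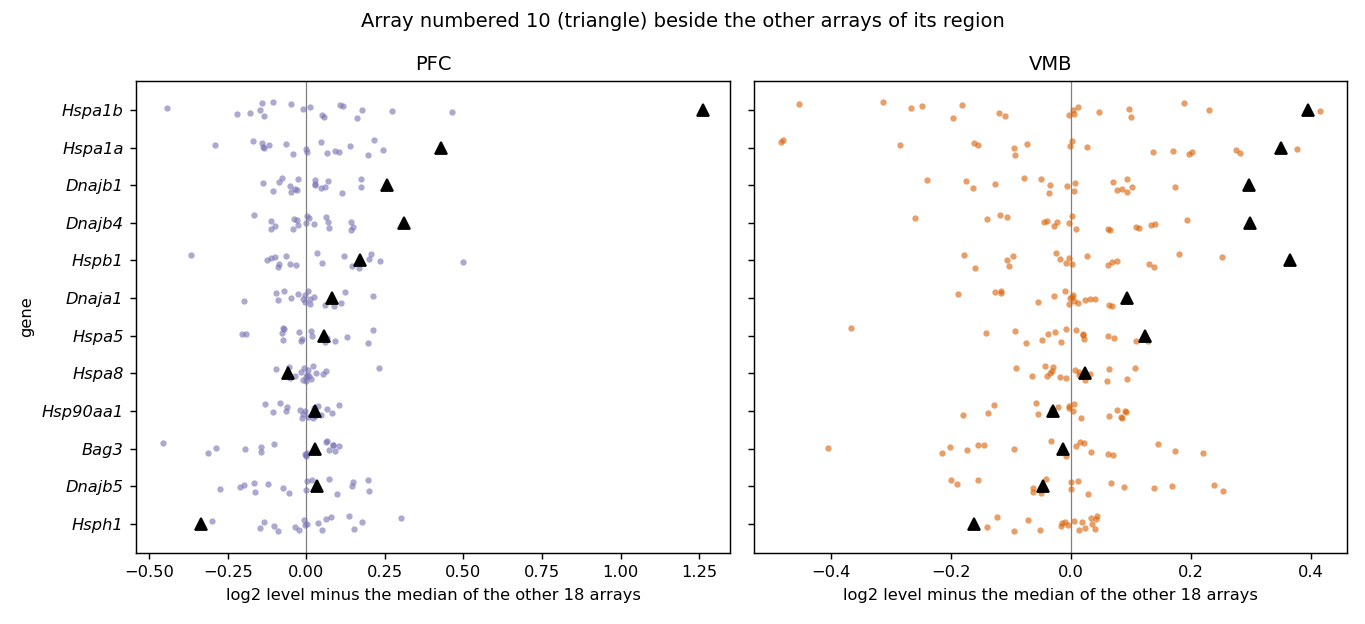
Levels of 12 chaperone genes on each PFC and VMB array, in log2 units as deposited, after subtracting the median of the arrays other than number 10 (1 point an array; the triangle is array 10). In PFC the triangle of Hspa1b lies 1.26 above the median, in both regions those of Dnajb1 and Dnajb4 lie above and that of Hsph1 below all other arrays.

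Hspa5 was set against 4 ER partners. In NAc Hspa5 followed Dnajc3 with r = 0.826 (permutation p = 1e-05, the smallest that the permutations can give, adjusted 0.00036) and rho = 0.809 (p = 3e-05, adjusted 0.00108). For Dnajb11, an ER J protein, r was 0.803 (permutation p = 2e-05, adjusted 0.00036) and rho 0.725 (p = 0.00063, adjusted 0.011). Hsp90b1 gave r = 0.695 (permutation p = 0.00101, adjusted 0.00606) and rho = 0.567 (p = 0.0117, adjusted 0.0471). For Dnajb9, an ER J protein that restrains a stress sensor, r was 0.701 (permutation p = 0.00087, adjusted 0.00606) and rho 0.465 (p = 0.0463, adjusted 0.0978). The 3 NAc arrays apart along the main axis were among the 6 lowest for each of these 5 genes. Without the 2 arrays farthest from the median of Hspa5, r was 0.752 for Dnajc3, 0.70 for Dnajb11, 0.49 for Hsp90b1 and 0.504 for Dnajb9 (adjusted permutation p = 0.00936, 0.025, 0.161 and 0.16). Without all 3, r was 0.71 for Dnajc3 and 0.668 for Dnajb11 (adjusted permutation p = 0.0185 and 0.021), and 0.36 for Hsp90b1 and 0.355 for Dnajb9 (adjusted 0.339 for both). Of all tested probesets 96.0% had a lower r with Hspa5 than Dnajc3 had, 94.0% than Dnajb11, 84.7% than Hsp90b1 and 85.2% than Dnajb9, and with the main axis taken out none of the 4 passed, r being -0.0994 for Dnajc3, 0.209 for Dnajb11, -0.398 for Hsp90b1 and -0.531 for Dnajb9.

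In VMB Hspa5 followed Hsp90b1 with r = 0.667 (permutation p = 0.00121, adjusted 0.00622), while rho was 0.523 (p = 0.0237, adjusted 0.071). Dnajc3 gave r = 0.664 (permutation p = 0.0008, adjusted 0.00606) and rho = 0.653 (p = 0.00293, adjusted 0.0176), and Dnajb9 gave r = 0.634 (permutation p = 0.00537, adjusted 0.0176) and rho = 0.695 (p = 0.00137, adjusted 0.0123). Dnajb11 did not pass there (r = 0.474, adjusted permutation p = 0.101), and after joint quantile normalization none of the 4 did. Without the 2 arrays farthest from the median of Hspa5, r was 0.378 for Hsp90b1, 0.505 for Dnajc3 and 0.675 for Dnajb9 (adjusted permutation p = 0.312, 0.16 and 0.025). In PFC none of the 4 passed by r, the highest being 0.527 for Dnajc3 (permutation p = 0.0195, adjusted 0.054). Without array 3 that r was 0.657 (adjusted permutation p = 0.021). By rho Dnajc3 did pass in PFC, at 0.572 (permutation p = 0.0118, adjusted 0.0471). For Dnajb9 in PFC r was 0.302, and 0.659 without the 2 arrays farthest from the median of Hspa5 (adjusted permutation p = 0.0278). Whether the relations differed between regions was not tested. The promoters of Hspa5, Hsp90b1 and Dnajc3 hold the ER stress element shown above, and those of Dnajb9 and Dnajb11 in the table held no match. Hspd1 and Hspe1, which share the stretch printed for Hspe1, gave r = 0.562 in NAc (permutation p = 0.0118, adjusted 0.0354; rho = 0.535, adjusted 0.0643), 0.309 in VMB and -0.476 in PFC, and in NAc r was 0.435 without the 3 arrays apart (adjusted 0.209).

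**Figure D5:**
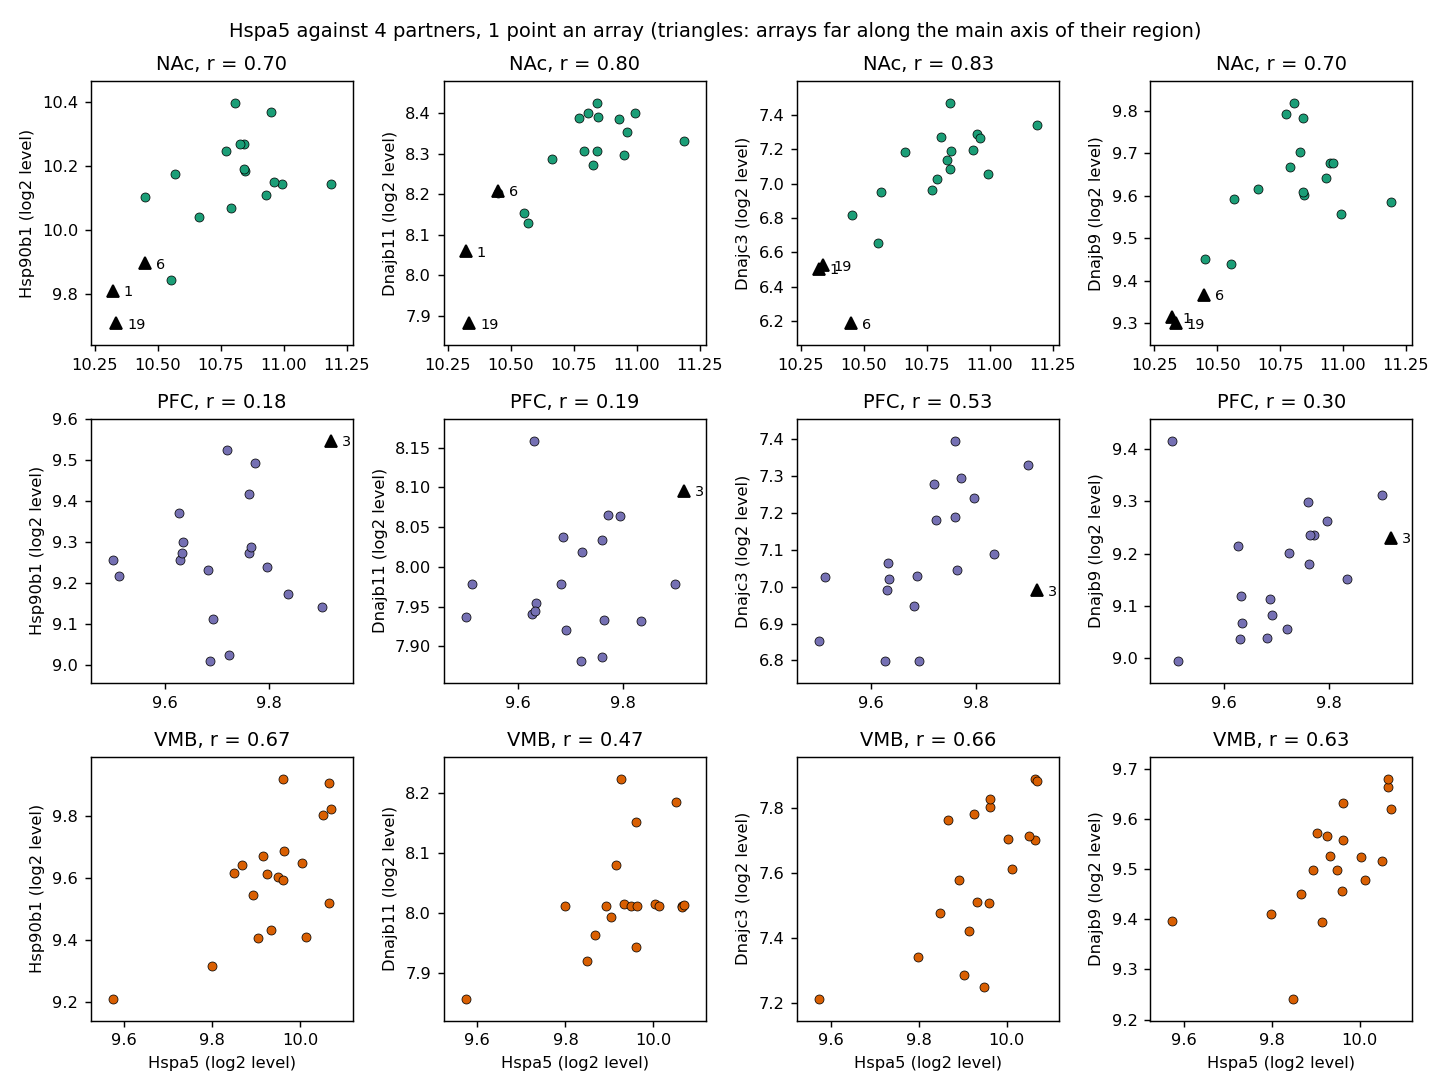
Levels of Hsp90b1, Dnajb11, Dnajc3 and Dnajb9 against Hspa5 in log2 units as deposited, 1 point an array, with regions in rows (NAc, PFC, VMB). Triangles with numbers are NAc arrays 1, 6 and 19 and PFC array 3; in NAc the triangles are among the 6 lowest arrays for every gene, where r is 0.70 to 0.83.

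From mouse to mouse, the median SD of the 73 genes was 0.145 in NAc, 0.126 in PFC and 0.142 in VMB, beside 0.171, 0.139 and 0.171 over all tested probesets. In NAc the most variable were Dnajc3 (SD 0.333), Bag4 (0.325), Dnajc21 (0.307), Cct8 (0.304) and Dnajc14 (0.298), and the correlation of each with the main axis of that region lay between -0.95 and -0.83. In PFC Hspa1b led (SD 0.353), followed by Hspb8 (0.256), Dnajc18 (0.195), Hspb3 (0.191) and Dnajc28 (0.191), and Hspa1b had a correlation of -0.08 with the main axis. Over the 18 PFC arrays other than number 10 the SD of Hspa1b was 0.207, below that of Hspb8 on all 19. In VMB they were Dnajc14 (SD 0.387), Hspa1l (0.358), Hspb7 (0.313), Bag4 (0.304) and Dnajc18 (0.290). Of these, Hspa1l reached a deposited signal of 4.5 on 1 of 19 VMB arrays (median 3.45, highest 4.75). Hspb7 reached it on 13 (median 4.55, highest 5.63), so both SDs are of signals near or under the filter. The steadiest were the vesicle J protein Dnajc5 in NAc (SD 0.044), Dnajb6 in PFC (0.055) and Hspa8 in VMB (0.053).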

How the data were processed

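Deposited values were log2 RMA signals for 22626 probesets on 57 arrays, which the authors obtained from scans processed with GCOS v4.1 and summarized with RMA. Array medians differed by region, so all arrays were quantile normalized together before regions were compared, while relations within a region used the deposited log2 values. Probesets at 4.5 or more on at least 1 array were tested (19815). Regions were compared in 1 fit over 57 arrays with limma 3.58.1 in R 4.3.3, using treat with a minimum difference of 0.5 and Benjamini-Hochberg adjustment, called at 0.01. Permutation p-values were two-sided, from 100000 permutations. The scripts were tested on simulated data. Symbols came from the platform annotation, where 20380 probesets carried 1 symbol, 691 several and 1555 none.

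Named genes were the up to 6 members with the largest called difference in each direction and comparison that kept their sign on the deposited and median-centred scales, set heads of each class, the genes of the relations, and the 5 members of largest SD in each region. The members, lists, relations and tests were chosen with earlier results of these data known. Alternatives changed scaling, minimum, filter, probeset choice, array weights, replicate block and arrays left out. The number of arrays limits the precision.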

Additional observations from a re-analysis of the deposited data

How the results depend on the processing

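Region counts are given as members higher and lower. For NAc minus PFC (3 and 5) they were 48 and 1 as deposited, 35 and 19 without a minimum difference, 0 and 1 with a minimum of 1, 1 higher with the mean of all probesets, 3 lower with each array centred on its median, and 3 lower without the arrays numbered 10, an alternative chosen after seeing the data. For VMB minus PFC (6 and 6) they were 38 and 21 without a minimum and 2 and 2 with a minimum of 1. For NAc minus VMB (6 and 7) they were 34 and 2 as deposited, 29 and 33 without a minimum, and 2 and 2 with a minimum of 1. On the deposited scale the median of all probesets is itself shifted by 0.72, 0.18 and 0.55 in these comparisons, and there Hspa8 reversed to 0.66 for NAc minus PFC and Hsp90aa1 to 0.62 for NAc minus VMB. With a minimum of 1, the count of 0 stands beside the 35 of the ordinary limma test without a minimum. For a minimum of 1, the mean of probesets, median centring and arrays left out, the share of all probesets called was not counted. The member counts under these settings are therefore not read as particular to chaperones.

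Relations passing were 6 of 12 in NAc, 1 in PFC and 5 in VMB. In NAc 0 passed with the first principal component taken out, 1 after joint quantile normalization, 3 without the 2 arrays farthest from the median and 3 without the arrays far along that component. In PFC 2 passed by Spearman's rho, 2 without the far array and 0 without array 10. In VMB 3 passed with the component taken out, 0 after quantile normalization, 2 without the 2 farthest arrays and 2 without array 10. With the component taken out, r in NAc reversed to -0.252 for Hspd1 with Hspe1, -0.398 for Hspa5 with Hsp90b1, -0.0994 with Dnajc3 and -0.531 with Dnajb9, and the cause was not tested. The alternatives without far arrays and without array 10 were chosen after seeing the data.

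Arrays with the same number deviated together only weakly (mean r of 0.0561 for NAc and PFC, 0.0129 for VMB and PFC, 0.0712 for NAc and VMB, with 3, 5 and 10 of 18 pairs over 0.1). This cannot show that they come from different mice, and by the paper's account the regions share mice. The labels do not link the numbers to mice, so the main fit took all arrays as independent. The number was used as a block only in an alternative. With the replicate block (consensus correlation 0.0546) 3 and 5, 7 and 6, and 6 and 7 members were called. Leaving out the array with conflicting labels moved no count past 1.5 times. Signals near or under 4.5, as for Bag3 in PFC, Hspb3 in VMB and Hspb7 in PFC and VMB, limit how far a fold can be read.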
